A study of Junco hyemalis with 13 samples.

Results

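The genes described here encode the precursors of 3 neuropeptides, PENK, NTS and CCK. They were chosen by symbol in a shortened copy of the study's annotation table, where each symbol stood against 1 annotated element. All 3 elements passed the filter on low counts, out of 15363 elements in the count files, 11454 elements with a count and 9938 elements tested. The libraries came from the hypothalamus of 7 resident and 6 migrant male dark-eyed juncos (Junco hyemalis), 1 library per bird. Residents (the carolinensis subspecies) stay at the capture site and breed there, whereas migrants (the hyemalis subspecies) winter at that site and leave to breed further north. Both were free-living birds caught in March 2017, received no treatment, and were told apart by bill colour, plumage and wing length. Their ages were not given in the sources used here. The study asked how hypothalamic expression differed between these populations at the start of spring.

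Neuropeptides are cut from longer precursor proteins in the secretory pathway, packed into dense-core vesicles and released from neurons. Preproenkephalin, the product of PENK, holds several copies of the enkephalins, which act on opioid receptors and usually inhibit the neurons that carry them. In mammals NTS gives neurotensin, a peptide known in the hypothalamus for effects on feeding, body temperature and dopamine neurons. CCK gives cholecystokinin, a gut and brain peptide known for satiety and, in the brain, made by many forebrain neurons. Each library was made from tissue punches pooled for 1 bird, so fewer cells that make a peptide and less RNA per cell cannot be told apart in any value below.

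Total counts were 4308064 to 5469786 in residents and 4319503 to 5826833 in migrants. Resident replicate 4 and migrant replicate 1 stood apart from the other 11 libraries on the main axis of a principal component analysis (24.3% of the variance). All 7 genes listed as hypothalamic markers had counts in every library, as did the 5 neuronal markers. Summed neuronal markers spanned 3097 to 5712 CPM (counts scaled to library size with TMM factors) in residents and 2957 to 4967 CPM in migrants. The hypothalamic markers summed to 357.8 to 1033 CPM in residents, with resident 2 highest, and 349.4 to 560.6 CPM in migrants. Most of this sum was NPVF, with 876.6 CPM in resident 2 and means of 506.8 CPM in residents and 357.2 CPM in migrants. NPVF, GNRH1 and CRH are also described below as peptide precursors, so this sum is not a separate measure of the tissue. Of the 7 hypothalamic markers, 6 had positive estimates (median log2 fold change of residents over migrants 0.50, from NPVF) and edgeR called 0. Leaving out LHX1 and LHX5, named in the table copy only because of their small p, 4 were positive and 1 negative (median 0.46, from CRH). The summed blood markers HBAA and HBAD spanned 3495 to 10375 CPM in residents and 4780 to 12696 CPM in migrants. Both had negative estimates (log2 fold change −0.59 for HBAA, unadjusted p = 0.0375, and −0.53 for HBAD, unadjusted p = 0.0387), with an adjusted p of 0.996 by edgeR's quasi-likelihood test. The summed forebrain markers ZIC1, SHOX2 and CALB2, which also mark regions outside the hypothalamus, spanned 586.5 to 1733 CPM in residents and 549.7 to 1517 CPM in migrants. How far the composition of the punched tissue moved the 3 peptide genes was not tested.

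PENK (NP_001232380.1, annotated as a putative preproenkephalin precursor) was detected in every bird, with 1614 to 3660 read pairs per library. Its level did not differ between the populations beyond the spread between birds, and the birds of each population covered most of the range of the other. Residents 1 to 7 had 424.5, 685.9, 406.5, 555.5, 485.7, 530.4 and 558.0 CPM. Migrants 1 to 6 had 523.9, 609.6, 658.9, 339.7, 422.1 and 394.9 CPM. The highest bird was a resident and the lowest a migrant, and 4 migrants lay inside the resident range. PENK averaged 520.9 ± 94.4 CPM in residents (SD, n = 7) and 491.5 ± 126.7 CPM in migrants (SD, n = 6). The log2 fold change of residents over migrants was 0.08 (SE 0.16), and its 95% interval was −0.26 to 0.43, from 0.836 to 1.34 times the migrant level (edgeR's quasi-likelihood test, adjusted p = 0.996).

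NTS (NP_001232613.1, annotated as a neurotensin precursor) had 1017 to 2438 read pairs per library. Residents 1 to 7 had 214.0, 471.2, 374.3, 263.1, 260.6, 264.6 and 392.3 CPM, and migrants 1 to 6 had 359.2, 300.4, 225.0, 335.5, 293.0 and 390.0 CPM. All 6 migrants lay within the resident range. Residents held the ends of the range, with resident 2 highest and resident 1 lowest, while residents 4, 5 and 6 lay within a few CPM of each other. NTS averaged 320.0 ± 93.2 CPM in residents (SD, n = 7) and 317.2 ± 57.9 CPM in migrants (SD, n = 6). The log2 fold change was 0.01 (SE 0.18), with a 95% interval of −0.36 to 0.38, from 0.780 to 1.31 times the migrant level (edgeR's quasi-likelihood test, adjusted p = 0.999).

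CCK (NP_001232081.1, annotated as a putative preprocholecystokinin precursor) had 234 to 1526 read pairs per library and was the most variable of the 3. Residents 1 to 7 had 80.6, 294.9, 114.5, 227.7, 134.5, 60.0 and 41.9 CPM, and migrants 1 to 6 had 192.6, 220.8, 71.3, 92.8, 103.3 and 144.9 CPM. Again all 6 migrants lay within the resident range, and residents were both the highest birds (2 and 4) and the lowest (6 and 7). CCK averaged 136.3 ± 92.9 CPM in residents (SD, n = 7) and 137.6 ± 59.3 CPM in migrants (SD, n = 6). The log2 fold change was −0.02 (SE 0.38). Its 95% interval was wider than for the other genes, −0.81 to 0.77, from 0.572 to 1.71 times the migrant level (edgeR's quasi-likelihood test, adjusted p = 0.999). Estimates from log values were lower, −0.20 by limma-voom and −0.19 as the difference in mean log2(CPM + 1). Without resident 2 the edgeR estimate was −0.33.

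None of the 3 genes was called at an adjusted p of 0.05. Over the 9938 elements tested, edgeR's quasi-likelihood test called 0 higher (0.0%) and 0 lower (0.0%) in residents, with 442 (4.45%) at an unadjusted p below 0.05. DESeq2 called 2 higher (0.0201%) and 1 lower (0.0101%) with 502 (5.05%) unadjusted, and limma-voom called 0 with 445 (4.48%) unadjusted. The unadjusted p from edgeR's quasi-likelihood test was 0.615 for PENK, 0.942 for NTS and 0.965 for CCK. Exact two-sided permutation of log2(CPM + 1) over the 1716 divisions of the birds gave p = 0.561 for PENK, p = 0.937 for NTS and p = 0.692 for CCK. These p-values do not show that the populations had equal levels. For PENK and NTS the 95% intervals excluded a fold of 1.5 in either direction, and for CCK they did not.

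**Figure D1:**
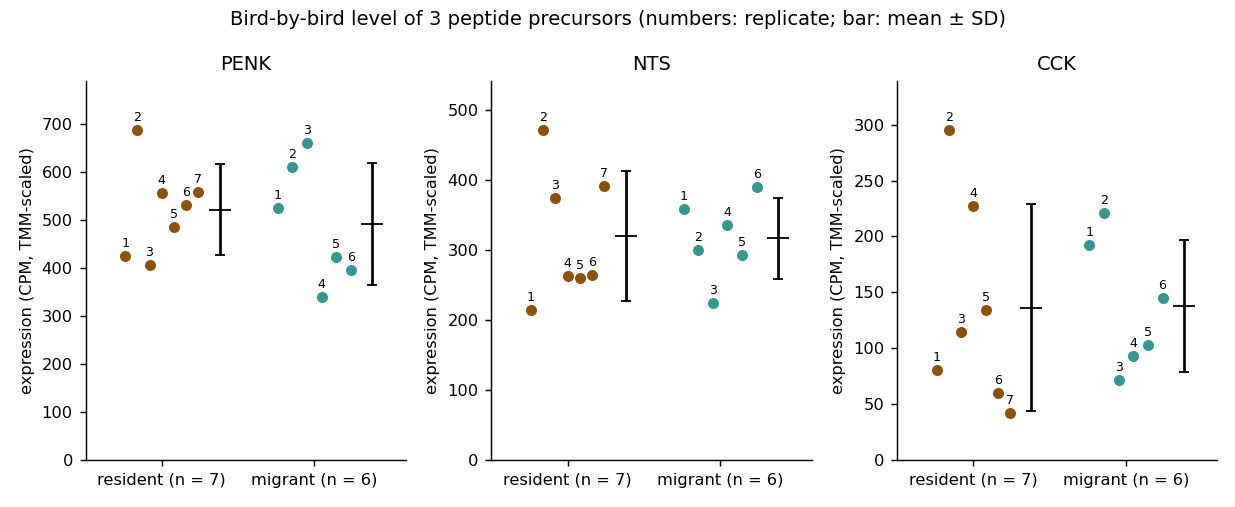
TMM-scaled expression of PENK, NTS and CCK in CPM (vertical axis, from 0, a separate scale for each gene) in 7 resident and 6 migrant juncos (horizontal axis). Points are birds with their replicate numbers and bars are the mean ± SD. Resident 2 was the highest bird in all 3 panels, and the CCK points spread from 41.9 to 294.9 CPM.

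Bird-to-bird spread was large for CCK in both populations. The ratio of the highest to the lowest bird for CCK was 7.04 in residents and 3.10 in migrants. For PENK this ratio was 1.69 in residents and 1.94 in migrants, and for NTS it was 2.20 in residents and 1.73 in migrants. The coefficient of variation (SD over mean) of CCK was 68.2% in residents and 43.1% in migrants. Counting error by itself would give 3.89% for residents and 3.83% for migrants. That of PENK was 18.1% in residents and 25.8% in migrants, with counting error of 1.95% in residents and 2.02% in migrants. That of NTS was 29.1% in residents and 18.3% in migrants, with counting error of 2.49% in residents and 2.55% in migrants. Counting error was thus a small share of the spread for each gene, and the depth did not limit these values. Counting error here does not include duplicate molecules made by PCR.

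No difference in spread between the populations passed the test. The mean absolute deviation from the population median on the log2(CPM + 1) scale was 0.78 for CCK in residents and 0.52 in migrants (difference 0.25, exact permutation p = 0.326). For NTS it was 0.32 in residents and 0.21 in migrants (difference 0.11, exact permutation p = 0.468). For PENK the order was turned round, with 0.19 in residents and 0.32 in migrants (difference −0.12, exact permutation p = 0.175). The adjusted p over these 3 comparisons was 0.468 for each gene. These p-values are approximate, since each median comes from the birds whose deviations are exchanged. Dixon's test at the 95% level put no bird apart from its population for PENK, NTS, CCK or the 6 other precursors tested (0 of 18 groups).

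Spread was also set against other elements by the biological coefficient of variation, which edgeR estimates within populations after counting error is taken out and draws toward elements of like abundance. It was 46.4% for CCK, 22.9% for NTS and 21.3% for PENK. Over all elements tested, 529 (5.32%) varied more than CCK, 4346 (43.7%) more than NTS and 5151 (51.8%) more than PENK. A narrower comparison was made with the 1576 elements that had at least as many counts as CCK. The median of this coefficient among them was 18.4%, and CCK itself had the lowest mean count. Only 4 of these (0.254%) varied more than CCK, all without a symbol in the table used here. For NTS, 291 (18.5%) varied more and for PENK, 420 (26.6%). In the narrower comparison the count for CCK ranged from 2 to 5 when each library was left out (2 without migrant 4 or resident 5). Without resident 4 and migrant 1 together the counts were 3 for CCK, 122 for NTS and 141 for PENK. The count for PENK was 254 without migrant 1 and 271 without resident 4, and that for NTS was 186 without migrant 1 and 473 without resident 2.

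**Figure D2:**
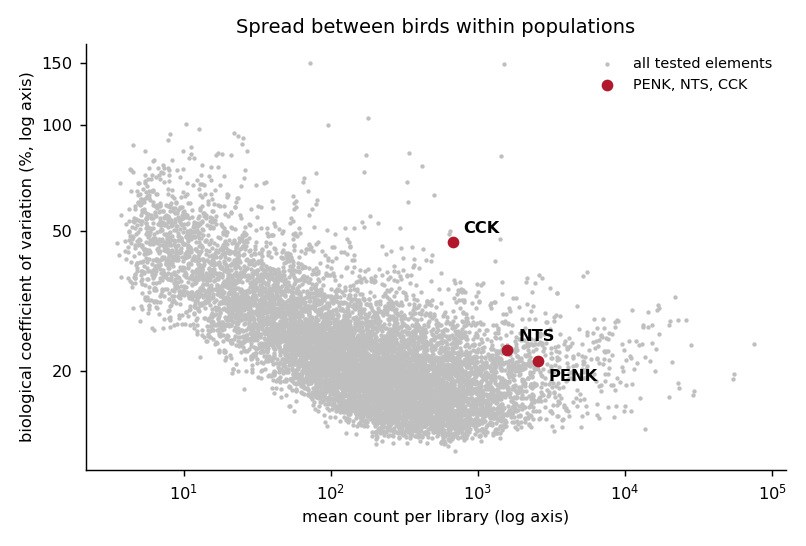
Biological coefficient of variation in percent (vertical log axis) against the mean count per library (horizontal log axis) for the 9938 elements tested (grey) and PENK, NTS and CCK (red). CCK, at 46.4%, sits above nearly all elements with as many counts, and NTS and PENK lie within the cloud at 22.9% and 21.3%.

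No pair of the 3 genes showed a relation over the 13 birds that passed the test. On the log2(CPM + 1) scale, Pearson's r of PENK with NTS was −0.01 (permutation p = 0.981), and Spearman's rho was −0.01 (permutation p = 0.993). For PENK with CCK, r was 0.24 (permutation p = 0.437) and rho was 0.16 (permutation p = 0.604). For NTS with CCK, r was 0.31 (permutation p = 0.307) and rho was 0.26 (permutation p = 0.385). Adjusted over the 3 pairs, the p of r was 0.981, 0.656 and 0.656. Without the 2 birds farthest from the median of the first gene of each pair, r was 0.21, 0.27 and −0.02 in the same order. A weak relation was not detectable with 13 birds.

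PENK and NTS gave values of opposite sign in the populations. Within residents r was 0.52 (exact permutation p = 0.230), and within migrants it was −0.64 (exact permutation p = 0.167). The difference was not tested. For PENK with CCK, r was 0.38 in residents (exact permutation p = 0.408) and 0.17 in migrants (exact permutation p = 0.738). For NTS with CCK, r was 0.21 in residents (exact permutation p = 0.628) and 0.58 in migrants (exact permutation p = 0.228). Resident 7, with the lowest CCK and the second highest NTS, weighed most on this last pair, for which r was 0.58 (permutation p = 0.0482) over the 12 other birds. That p was unadjusted and the lowest when each of the 13 birds was left out. Without resident 2 the same r was 0.07 (permutation p = 0.818). Without resident 4 and migrant 1, r was 0.01 for PENK with NTS, 0.18 for PENK with CCK and 0.39 for NTS with CCK.

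**Figure D3:**
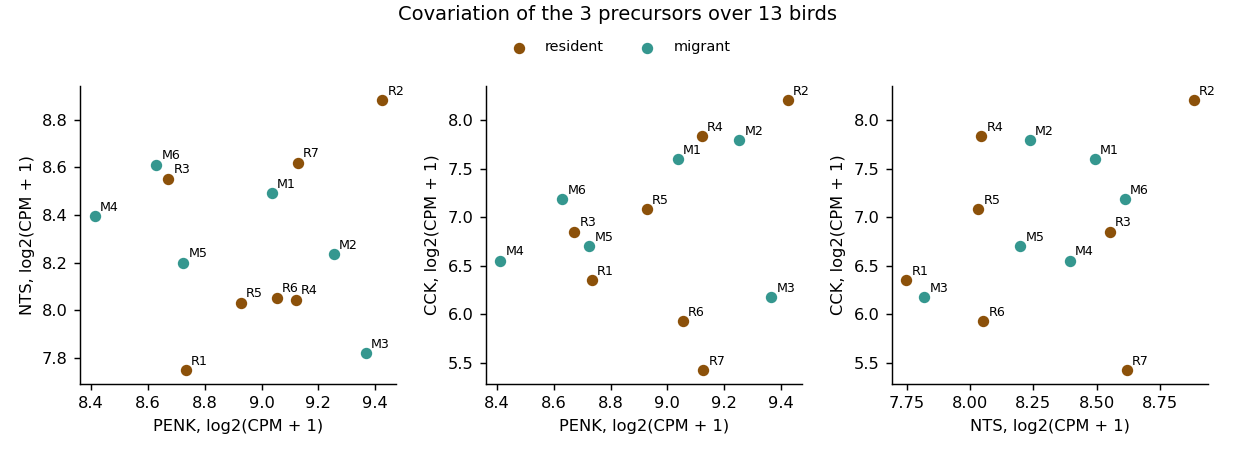
Level of one precursor against another on the log2(CPM + 1) scale for PENK and NTS, PENK and CCK, and NTS and CCK. Points are 13 birds (R, resident, brown; M, migrant, green; number, replicate). Resident 2 lies at the top right of each panel and the other birds show no common slope. Over all 13 birds r was −0.01, 0.24 and 0.31, and without resident 2 it was −0.33, 0.02 and 0.07.

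The birds differed in which peptide gene was high. Resident 2 was the only bird with all 3 genes above their 13-bird medians, and it was the highest bird for each of them. Resident 1 and migrant 5 had none above. Migrant 3 had the second highest PENK (658.9 CPM) together with the second lowest NTS (225.0 CPM) and the third lowest CCK (71.3 CPM). Migrants 4 and 6 showed the reverse for PENK and NTS, with the 2 lowest PENK levels of the 13 birds (339.7 and 394.9 CPM) and NTS above the median (335.5 and 390.0 CPM). Resident 2 also had the highest summed neuronal markers (5712 CPM) and forebrain markers (1733 CPM) of all birds, and their part in its peptide levels was not tested.

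The 3 genes were set against 15 other measures over the 13 birds, 45 relations in all: depth, the first principal component, summed cell type markers and the 6 other precursors. In the pooled test 8 had an unadjusted permutation p below 0.05 and 0 passed after adjustment, the smallest adjusted p being 0.128. That smallest value was for CCK with the summed forebrain markers, of which CALB2, the calcium-binding protein calretinin, made up 88.0% to 98.2% in each library. Here r was 0.76 (permutation p = 0.0028) and rho was 0.71 (permutation p = 0.008). Residents had r = 0.79 (exact permutation p = 0.0300, adjusted p = 0.225) and migrants had r = 0.76 (exact permutation p = 0.0583, adjusted p = 0.469). Without residents 2 and 7, r was 0.55. CCK with the first principal component gave r = −0.51 (permutation p = 0.0777, adjusted p = 0.349). There rho was −0.59 (permutation p = 0.0365, adjusted p = 0.269). CCK with the summed neuronal markers gave r = 0.64 (permutation p = 0.0164, adjusted p = 0.145). NTS with the summed neuronal markers gave r = 0.67 (permutation p = 0.0101, adjusted p = 0.145), but 0.39 without residents 1 and 2. PENK with the summed neuronal markers gave r = 0.28 (permutation p = 0.358). It was 0.82 in residents (exact permutation p = 0.0173, adjusted p = 0.194) and −0.20 in migrants (exact permutation p = 0.708). All of these neuronal markers are also among the 12 neuronal and synaptic genes, so the sums overlap. With the 12 summed genes NTS gave r = 0.60 (permutation p = 0.0269, adjusted p = 0.173), but 0.23 without residents 1 and 2. CCK gave r = 0.63 with that sum (permutation p = 0.0193, adjusted p = 0.145), and 0.53 without residents 2 and 7. PENK with the 12 summed genes gave r = 0.42 (permutation p = 0.162). Within residents that r was 0.86 (exact permutation p = 0.0065, adjusted p = 0.113) and within migrants it was −0.0031 (exact permutation p = 1.0), a difference that was not tested.

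Of the 45 relations only PENK with GNRH1, the gonadotropin-releasing hormone precursor, passed after adjustment, and only once population means were taken out. GNRH1 in residents 1 to 7 was 13.3, 29.6, 8.78, 25.4, 9.89, 19.7 and 20.1 CPM, and in migrants 1 to 6 it was 7.51, 8.16, 8.80, 5.47, 7.96 and 7.63 CPM. PENK and GNRH1 were both highest in resident 2 among residents and both highest in migrant 3 and lowest in migrant 4 among migrants. Within residents r was 0.89 (exact permutation p = 0.0075) and rho was 0.93 (exact permutation p = 0.0067). Within migrants r was 0.79 (exact permutation p = 0.0208) and rho was 0.83 (exact permutation p = 0.0583). Adjusted over the 45 relations, the exact permutation p of r was 0.113 in residents and 0.469 in migrants. With each value taken from its population mean, a step added after the data were seen, r was 0.69 (permutation within populations, p = 0.00033, adjusted over 45 relations p = 0.0148). It was 0.61 to 0.74 when each library was left out. Uncentred, r was 0.58 (permutation p = 0.0406, adjusted p = 0.228), and 0.39 without migrants 4 and 6. The centred test was run on all 45 relations, of which 8 had an unadjusted p below 0.05 and 1 passed after adjustment. The next smallest adjusted p was 0.0625 (permutation within populations), for CCK with the summed forebrain markers (centred r = 0.76). GNRH1 had only 26 to 49 read pairs in migrants, where its coefficient of variation of 14.9% was no larger than the 16.4% that counting error gives.

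PENK with CRH, the corticotropin-releasing hormone precursor, gave r = 0.69 (permutation p = 0.0095, adjusted p = 0.145), with r of 0.70 in residents and 0.71 in migrants. Over the 13 birds NTS with CRH gave r = 0.45 (permutation p = 0.120, adjusted p = 0.417). Within residents that r was 0.89 (exact permutation p = 0.0032, adjusted p = 0.113), and within migrants it was −0.33 (exact permutation p = 0.538). NTS with NPVF, which encodes gonadotropin-inhibitory hormone in birds, gave r = 0.67 (permutation p = 0.0131, adjusted p = 0.145), with r of 0.69 in residents and 0.89 in migrants. It was 0.32 without residents 1 and 2. CCK with NPY, the precursor of a feeding peptide, gave r = −0.15 over the 13 birds (permutation p = 0.618). Within residents that r was −0.81 (exact permutation p = 0.0264, adjusted p = 0.225). Within migrants it was 0.51 (exact permutation p = 0.281), a difference that was not tested.

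**Figure D4:**
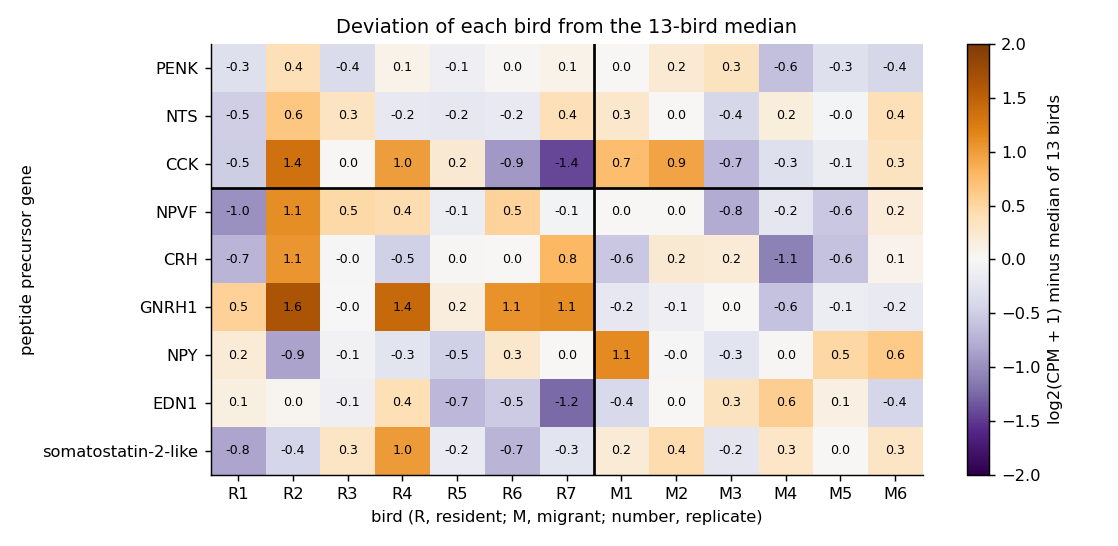
Deviation of each bird (columns, 7 residents then 6 migrants) from the 13-bird median of log2(CPM + 1) for PENK, NTS, CCK and 6 other peptide precursors (rows). Colour and printed value give the deviation in log2 units. Resident 2 was above the median for PENK, NTS, CCK, NPVF, CRH, GNRH1 and, by 0.040, EDN1. It was below the median for the somatostatin-2-like gene (−0.43) and for NPY (−0.85), where it was the lowest bird. CCK had deviations from −1.43 to 1.36.

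The named elements most like each gene over the 13 birds were sought among 1008 elements with a symbol and a mean of at least 5 CPM. These r values are a description and were picked as the highest of many. For PENK they were ATP6V0B (r = 0.86) and ATP6V0C (0.85), listed as subunits of the proton pump that acidifies vesicles, LOC100190475 (0.83, a putative HMP19 protein), SLC7A4 (0.80, a cationic amino acid transporter) and BASP1 (0.78, a membrane protein of axons and synapses). The description given for ATP6V0C names another protein, so its identity is uncertain. At the other end lay RAB30 (r = −0.76, a small GTPase), SDCCAG8 (−0.73, a centrosomal protein) and FZD10 (−0.70, a Wnt receptor). ATP6V0B was like PENK in both populations (r = 0.96 in residents and 0.85 in migrants). Resident 2, the highest bird for PENK, was also highest for ATP6V0B, ATP6V0C, LOC100190475 and BASP1, and lowest for SDCCAG8 and FZD10.

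For NTS the alike elements included EIF4E (r = 0.83, the cap-binding translation factor), RALA (0.79, a small GTPase of vesicle exocytosis) and PDCD5 (0.76). The least alike were SOCS7 (r = −0.81), CSF1 (−0.74, a growth factor of macrophages and microglia) and NDUFS1 (−0.74, a subunit of respiratory complex I). For CCK the most alike were RABL3 (r = 0.85), PSMA4 (0.78, a proteasome subunit), LSM4 (0.76, an RNA-binding protein of the splicing machinery), CALB2 (0.76) and EMC7 (0.75). H6PD (−0.70), SLC30A7 (−0.67, a zinc transporter) and WNT11 (−0.65, a Wnt ligand) were the least alike. Resident 2 was the highest bird for EIF4E, PDCD5, RABL3, LSM4 and CALB2, and the lowest for SOCS7, CSF1 and H6PD. Without residents 1 and 2, r with NTS was 0.75 for EIF4E, 0.60 for PDCD5 and −0.68 for SOCS7. Without residents 2 and 7, r with CCK was 0.75 for RABL3, 0.63 for PSMA4 and 0.59 for LSM4. There it was 0.55 for CALB2, 0.64 for EMC7, −0.34 for H6PD, −0.66 for SLC30A7 and −0.58 for WNT11. Among 8519 elements of at least 5 CPM, with or without a symbol, 107 had r above 0.7 with PENK, 89 with NTS and 49 with CCK.

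Other genes of peptide signalling were listed by role, and names were at hand for only some. Of 24 other precursors listed, 7 were annotated and 6 tested, and edgeR's quasi-likelihood test called 0 of them. Their estimates were split evenly, 3 higher and 3 lower in residents, with a median log2 fold change of 0.12 against 0.002 over all elements tested. NPY, the feeding peptide, was named in the table copy only because of its small p. Without it 3 were higher and 2 lower, and the median was 0.46. GNRH1 averaged 18.1 ± 7.83 CPM in residents and 7.59 ± 1.13 CPM in migrants (log2 fold change 1.25, SE 0.27, adjusted p = 0.603 by edgeR's quasi-likelihood test), and was the 1 list member that DESeq2 called. The study, which used DESeq2, also reported GNRH1 as significantly higher in residents.

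NPVF averaged 506.8 ± 211.5 CPM in residents and 357.2 ± 87.6 CPM in migrants (log2 fold change 0.50, SE 0.25). CRH averaged 14.5 ± 7.18 CPM in residents and 10.4 ± 3.94 CPM in migrants (0.46, SE 0.31). NPY averaged 491.4 ± 123.8 CPM in residents and 713.5 ± 270.1 CPM in migrants (−0.54, SE 0.21). The remaining precursors were EDN1, the endothelin precursor, with a log2 fold change of −0.32 (SE 0.28), and a somatostatin-2-like gene with −0.22 (SE 0.25). SCT, the secretin precursor, was too low to test.

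**Figure D5:**
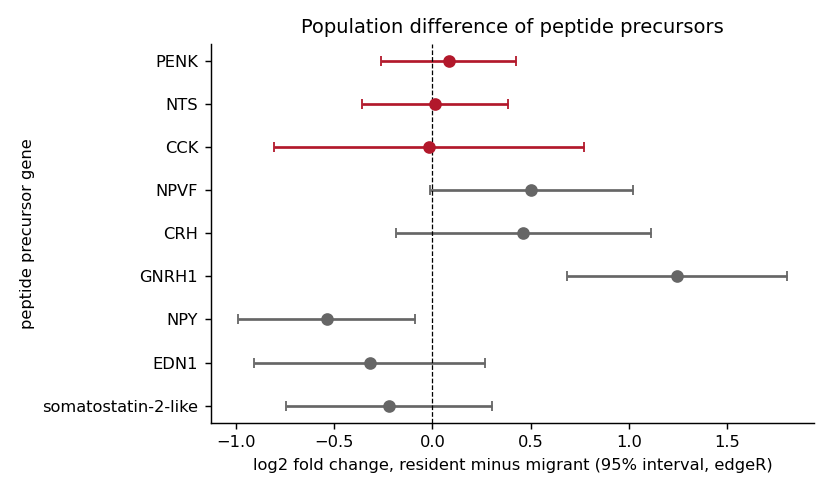
Log2 fold change of residents over migrants (horizontal axis) with its 95% interval from edgeR for PENK, NTS and CCK (red) and 6 other peptide precursors (grey), 1 gene per row. PENK, NTS and CCK lie near 0 at 0.08, 0.01 and −0.02, with the widest interval for CCK, and GNRH1 lies farthest from 0 at 1.25.

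The 8 genes listed as receptors of enkephalins, neurotensin and cholecystokinin were not annotated in the names at hand and were not analysed here. Of 6 other peptide receptors 5 were tested, 0 were called, and all 5 estimates were positive. The median log2 fold change of this list was 0.43, against 0.002 over all elements tested. Except for LOC100221986, the 95% interval of each of these receptors spanned 0. Of 16 genes for precursor processing and peptide degradation 6 were tested and 0 called, 2 with a positive and 4 with a negative estimate (median −0.05). Of 12 neuronal and synaptic genes all were tested and 0 called, 10 with a positive and 2 with a negative estimate (median 0.13). List members with an unadjusted p below 0.05 besides GNRH1 and NPY were LOC100221986 (log2 fold change 1.40), ACE (1.46, a peptidase that cleaves many small peptides), LOC105758921 (0.21), GAP43 (0.29, an axonal growth protein) and SV2C (0.48, a synaptic vesicle protein). Counts were low for LOC100221986 (mean 13.4 in residents and 4.83 in migrants) and ACE (17.3 and 6.33), near the filter of 5 counts. All 5 of these list members had been named because of their small p, and each had an adjusted p of 0.996 by edgeR's quasi-likelihood test. Leaving such genes out, the median was 0.41 for the receptors, −0.08 for processing and degradation and 0.08 for the neuronal genes.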

How the data were processed

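The authors deposited whole-number counts for each annotated element, 1 file per bird, without normalization. Per the study's methods and the submitters' processing notes, reads were trimmed (Trimmomatic 0.33), mapped to a junco draft genome (STAR 2.5.3a) and counted where unique (featureCounts; Subread 2.0.0 in the notes, which also name GSNAP), with elements named by similarity to zebra finch proteins. Libraries were TruSeq Stranded mRNA. Overlapping genes may share counts, since nothing used here gives the strand setting. Reads shared with near-identical genes were lost before deposit. Symbols came from a shortened copy of the annotation table (1220 elements with a symbol), which lists first the elements of smallest p. Members and lists were chosen with earlier results of these data known.

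Elements reaching 5 counts in 6 or more of the 13 libraries were tested with edgeR 4.0.16 (TMM factors, quasi-likelihood, Benjamini-Hochberg adjustment at 0.05) in R 4.3.3. DESeq2 1.42.0 and limma-voom (limma 3.58.1), other scalings, filters and pseudocounts, a replicate block and leaving out each bird were alternatives. Standard errors were derived from the fold change and its F statistic. CPM used TMM-scaled library sizes, with a pseudocount of 1 on the log2 scale. Correlations used 100000 permutations over 13 birds and exact pairings within populations. Named genes are the 3 members, the 5 named elements most and 3 least alike to each, the other precursors tested and list members with an unadjusted p under 0.05. A few elements that this rule picks are not reported here. On simulated counts for these 9938 elements (residents against migrants), edgeR recovered 36% of changes of 1.5-fold and 94% of changes of 2-fold. There 50 elements at each fold had been changed, and 8 unchanged elements were also called. With 0 calls in the real counts the adjustment was stricter, so these rates do not carry over to them. They also pool elements drawn at random and do not hold for PENK, NTS or CCK by name.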

Additional observations from a re-analysis of the deposited data

How the results depend on the processing

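No alternative called PENK, NTS or CCK. Of 21 alternatives the log2 fold change turned sign in 1 for PENK (without migrant 4), 8 for NTS and 7 for CCK. With a replicate block NTS was −0.0753 and CCK was 0.0573, and with limma-voom NTS was −0.018 and CCK was −0.20. Leaving out each bird gave −0.0081 to 0.19 for PENK, −0.105 to 0.091 for NTS (0.0915 without migrant 1 and resident 4 together) and −0.33 to 0.17 for CCK. DESeq2 called 2 elements higher and 1 lower in residents, among them 1 member of the peptide lists (GNRH1), where edgeR called 0. For PENK with NTS, r was 0.0134 when CPM were scaled by total count and 0.0115 without migrant 1 and resident 4, and −0.33 to 0.19 leaving out each bird. For NTS with CCK it was 0.0739 to 0.58, and for PENK with CCK 0.02 to 0.39. Among the elements with at least as many counts as CCK, those that varied more than CCK numbered 11 with the replicate block. Leaving out each bird they numbered 2 to 5. In the same set of elements, 254 to 598 varied more than PENK and 186 to 473 more than NTS when each bird was left out. Without migrant 1 and resident 4 together these counts were 141 for PENK and 122 for NTS. The spread comparisons kept their sign and missed the threshold under every alternative run. Replicate numbers did not pair the birds: the correlation of same-numbered birds was −0.18 to 0.06, and the block is given only as an alternative. Depth limits GNRH1 in migrants (26 to 49 read pairs) more than the 3 precursors.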
